A study of Rattus norvegicus with 4 samples.

Results

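Collagens, and the enzymes and chaperone that process them, were followed in the rat gracilis muscle through reperfusion after ischemia. Genes were taken by their name on the array: every name of the form Col, type number, a, chain number, together with the lysyl oxidases (Lox and Loxl), the lysyl hydroxylases (Plod), the alpha subunits of prolyl 4-hydroxylase (P4ha), Serpinh1, Pcolce and Bmp1. This gave 44 of the 35658 gene names and 64 of the 41012 probes. They were 9 fibrillar collagens, 6 network-forming collagens, 14 other collagens, 14 enzymes including the chaperone, and Col4a3bp. Col4a3bp fits the name pattern only, since it encodes a ceramide transfer protein and no collagen chain. It stayed within 2-fold of sham on every day and is counted among the 44.

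The muscles made ischemic were taken from male Sprague-Dawley rats and were reperfused for 1, 3, 7 or 14 days after 4 h without blood flow. The control was sham-operated gracilis. Each day was 1 Agilent 2-colour array, with injured RNA in Cy5 and sham RNA in Cy3 on all 4 arrays. With 1 injured and 1 sham sample a day, no replicate and no dye swap, the ratio of a single day has no test, the small number of arrays limits the precision, and dye bias of a probe cannot be told apart from injury. It is not stated if 1 sham sample served all the arrays. Whole muscle was measured, so fewer cells of a type and less RNA per cell cannot be told apart.

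Collagens are secreted proteins whose chains wind around each other into long helices built on a glycine repeat. Fibrillar types form the cables of the connective tissue around muscle fibres, network-forming types form sheets such as the basement membrane, and other types link fibrils, span membranes or form beaded filaments. The chains are hydroxylated on proline and lysine, folded with the help of a collagen-specific chaperone, trimmed of their propeptides outside the cell and cross-linked, and in injured muscle they are known as the substance of both repair and scar.

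The 4 probes printed first read the stretch in which fibrillar chains resemble each other, and show how far probes of related genes share sequence. Each is 60 bases long and is given 5′ to 3′ as on the array. Capitals mark runs of at least 10 bases that also occur in the printed probe of another gene.
Col1a1, rn4 chr10:83637956-83638015: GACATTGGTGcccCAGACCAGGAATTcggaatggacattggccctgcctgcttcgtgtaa
Col1a1, rn4 chr10:83637903-83637962: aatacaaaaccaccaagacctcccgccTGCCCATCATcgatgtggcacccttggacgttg
Col3a1, rn4 chr9:44317465-44317524: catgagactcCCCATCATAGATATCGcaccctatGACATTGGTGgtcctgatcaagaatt
Col5a2, rn4 chr9:44375560-44375619: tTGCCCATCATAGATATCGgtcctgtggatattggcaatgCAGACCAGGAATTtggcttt
The upper Col1a1 probe ends in the stop codon. The longest run shared by probes of different member genes was 16 bases, and the Col3a1 and Col5a2 probes printed here share such a run. The glycine repeat itself, with glycine at each of 6 codons in register, was found in 1 of 42 collagen probes and in 5 of all 41012 probes (0.0122%). It is the Col9a1 probe at rn4 chr9:22976816-22982770, positions that span more than the length of the probe, with glycine codons in capitals.
Col9a1: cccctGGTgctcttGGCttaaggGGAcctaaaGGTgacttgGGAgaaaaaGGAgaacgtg

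Values are log2 ratios of injured over sham. Levels are the log2 brightness of 1 channel after normalization, and are compared only for the same probe. A summed level adds the brightness of the genes of a list that had a probe, and is compared only for the same list. A gene counted as measured on a day if its brightest probe stood well above background in at least 1 channel. The SD of the log2 ratio over 40 probes printed 10 times per array was 0.052 to 0.099, which is spot noise and not variation between animals. Signal well above background was seen for 64.4% to 68.7% of probes in injured muscle and 34.7% to 47.3% in sham muscle, and day 14 was scanned in another session than days 1, 3 and 7. Muscle fibre genes (Ckm, Acta1, Myh4, Tnnt3 and Pygm, 5 of 6 listed) were bright in sham muscle, as the tissue label says, with levels given further on.

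Collagen and enzyme transcripts were near or below sham on day 1 and many were well above it from day 3. On day 1, 0 of the 37 measured members were higher by 2-fold or more and 4 (10.8%) were lower by as much, where 1.24% of all 22947 measured genes were higher and 4.91% lower. On day 3, 14 of 40 members (35.0%) were higher and 0 lower, where the background was 2.47% higher and 3.95% lower of 24464 genes. On day 7, 16 of 36 members (44.4%) were higher and 0 lower, where the background was 3.13% and 1.23% of 23491 genes. On day 14, 15 of 41 members (36.6%) were higher and 0 lower, where the background was 3.14% and 1.57% of 23749 genes. The day 1 split depended on scaling. It was 1 higher (2.7%) and 6 lower (16.2%) with the authors' deposited ratios, where 12% of all genes were higher and 8.53% lower. It was 5 higher (13.5%) and 1 lower (2.7%) with median centring of each array in place of loess, where 21.8% of all genes were higher and 1.88% lower.

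Medians over the members were -0.13, 0.50, 0.75 and 0.57 on days 1, 3, 7 and 14, beside 0.02, 0.03, 0.04 and 0.05 for all measured genes. The day 1 median was 0.23 with median centring, which also moved that of all genes to 0.37. On at least 1 day 17 of the 41 members ever measured passed 2-fold (41.5%, where the background was 11.5% of 26674 genes), of them 6 fibrillar collagens, 5 other collagens, 6 enzymes and 0 network-forming collagens. On each of days 3, 7 and 14 the same 11 of 36 members measured on these days were at least 2-fold higher (30.6%, where the background was 0.455% of 21304 genes), namely Col1a1, Col1a2, Col3a1, Col5a1, Col5a2, Col5a3, Col16a1, Bmp1, Pcolce, Loxl1 and Loxl2. In all 33 members were measured on every day, and Col11a1, Col17a1 and Col9a3 on none.

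**Figure D1:**
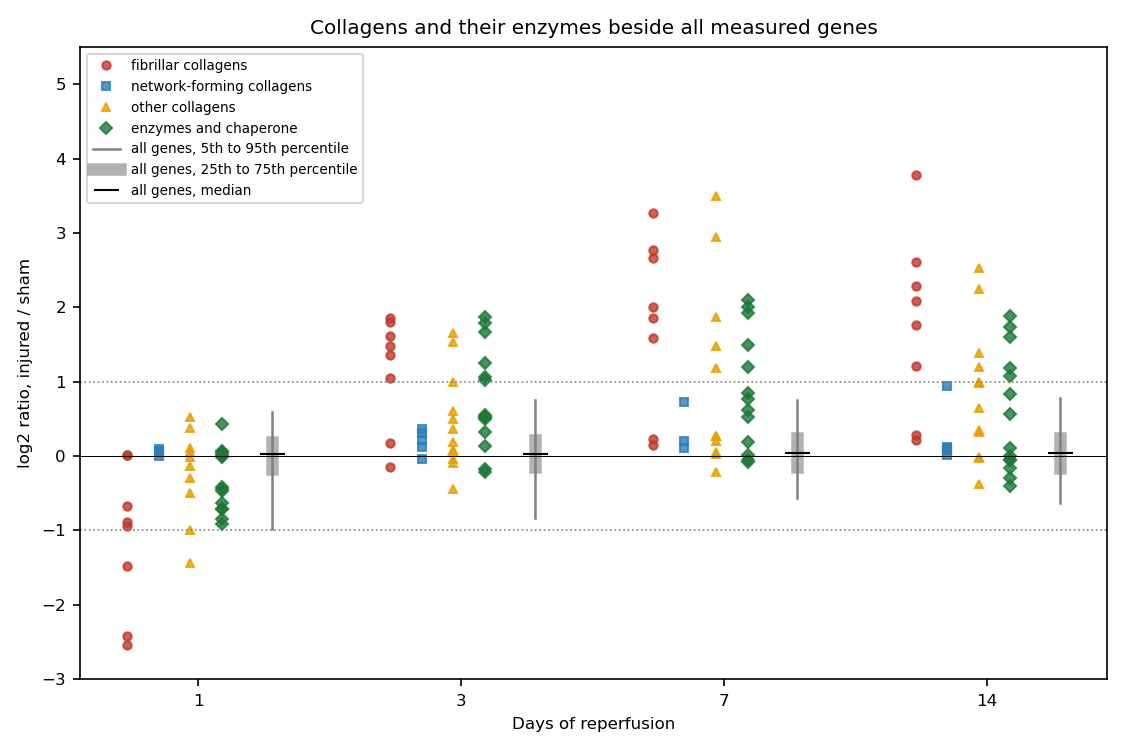
Log2 ratio of injured over sham (vertical axis) on days 1, 3, 7 and 14 (horizontal axis) for each measured member, 1 point per gene coloured by class, beside the median and the 25th to 75th and 5th to 95th percentiles of all measured genes. From day 3 the fibrillar collagens (class medians of 1.42, 1.93 and 1.92) lie mostly above the line at 2-fold, while the network-forming collagens stay within 2-fold. Most of the latter were dim, with 2, 2, 1 and 2 genes well above background in both channels on days 1, 3, 7 and 14.

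Fibrillar collagens had the widest swing of the classes. The median log2 ratio of the 8 measured genes was -0.91 on day 1, 1.42 on day 3, 1.93 on day 7 and 1.92 on day 14. With median centring the day 1 value was 0.00, where all genes were at 0.37. The chains of types I, III and V, 6 genes in all, were at least 2-fold higher on days 3, 7 and 14, where 0.455% of all genes were.

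Col1a1 and Col1a2 encode the chains of type I collagen, the main collagen of thick fibrils in muscle connective tissue, tendon and bone. Col1a1 had log2 levels of 11.89, 14.97, 15.59 and 15.56 in injured muscle on days 1, 3, 7 and 14, against 14.43, 13.17, 12.32 and 11.78 in sham muscle. By this probe it was 5.82-fold lower in injured muscle on day 1 and 3.49-fold higher on day 3. Against the sham level of the same array it was at least 9.63-fold higher on day 7 and at least 13.8-fold on day 14. The injured spot was saturated on the last 2 arrays. These are no lower bounds for the gene, since another probe gave log2 ratios of 2.67 and 2.70 on these days. Col1a2 had 9.65, 12.78, 14.47 and 13.50 in injured muscle, against 11.13, 11.42, 11.70 and 11.21 in sham muscle. Col1a2 was thus 2.79-fold lower on day 1 and 2.56-, 6.81- and 4.90-fold higher on days 3, 7 and 14.

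The sham level of Col1a1 itself moved between arrays, over 2.65 in log2, where the median range of sham levels among the members was 0.46. Its brightest probe, at rn4 chr10:83638177-83638236, lies 161 bases beyond the probe that ends in the stop codon. That stop-codon probe had 10.22, 13.45, 15.44 and 14.97 in injured muscle, against 11.73, 12.24, 12.77 and 12.27 in sham muscle. The other coding probe had 9.51, 12.29, 13.84 and 13.74 in injured muscle, against 10.65, 11.09, 10.97 and 10.95 in sham muscle. Both coding probes had steadier sham levels and smaller ratios with the same signs, -1.51, 1.21, 2.67 and 2.70 for the stop-codon probe and -1.14, 1.21, 2.87 and 2.79 for the other. Set against the mean of all 4 sham levels, the brightest probe gave -1.03, 2.05, 2.66 and 2.64. Of the 4 genes called lower on day 1 (Col1a1, Col1a2, Col3a1 and Col16a1), Col1a1 alone kept the call under median centring, with Col3a1 at -0.99 and Col1a2 at -0.29.

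The other probe of Col1a2, dimmer on average over the arrays, had 10.47, 14.42, 11.07 and 10.38 in injured muscle, against 12.34, 12.72, 8.54 and 8.26 in sham muscle. It was the brighter one on days 1 and 3, and both its channels were far lower on the arrays of days 7 and 14, yet its ratios of -1.86, 1.70, 2.52 and 2.12 differed by at most 0.38 from those of the first probe (-1.48, 1.36, 2.77 and 2.29).

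**Figure D2:**
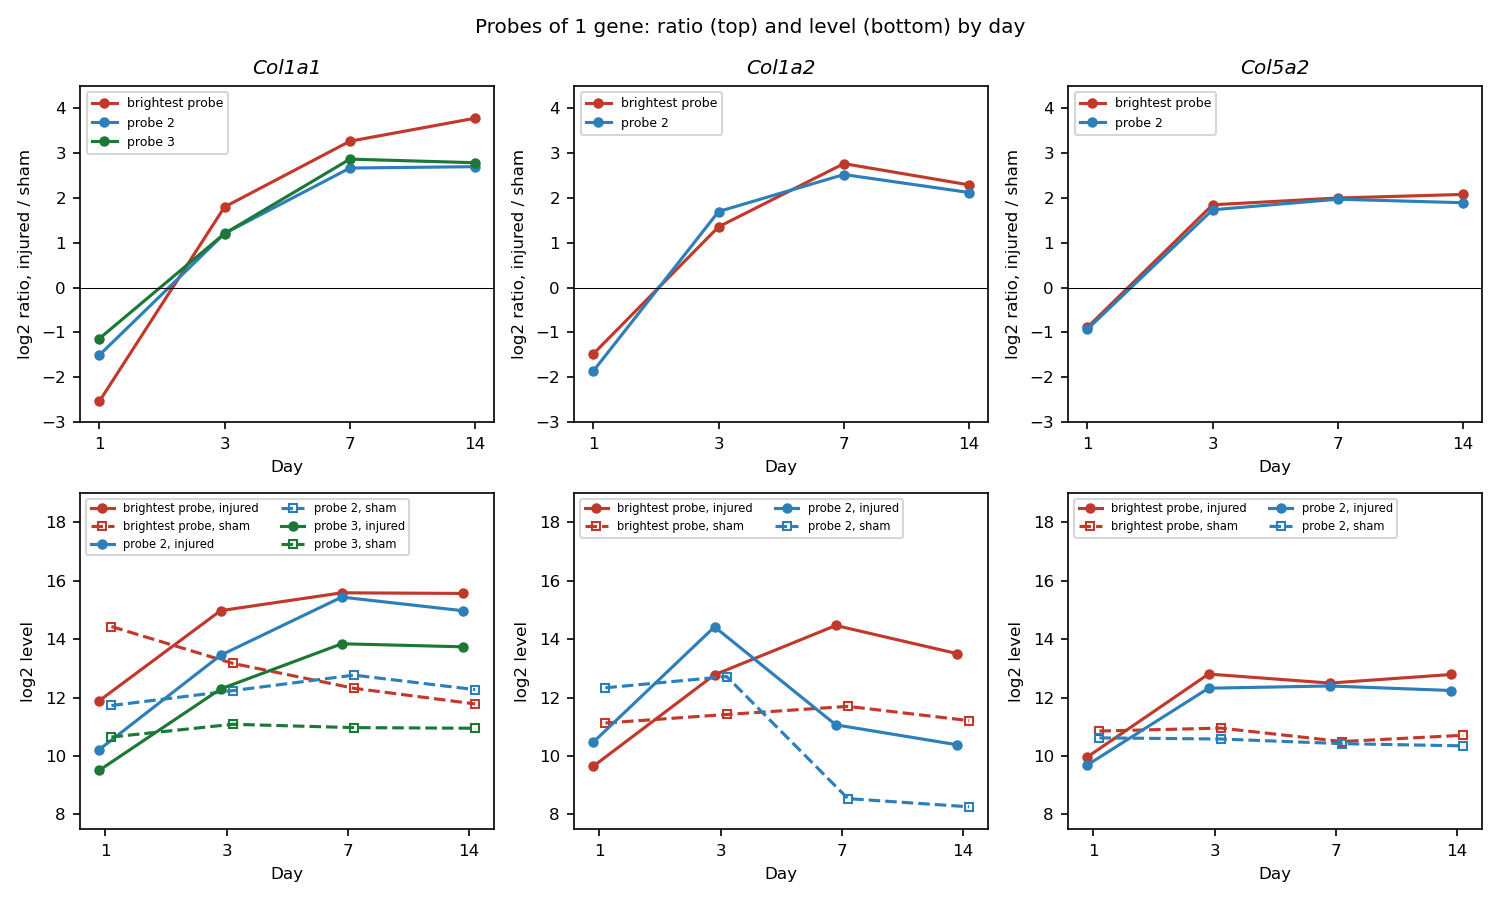
Log2 ratio of injured over sham (top) and log2 level (bottom; filled points and solid lines for injured, open points and dashed lines for sham) by day of reperfusion for each probe of Col1a1, Col1a2 and Col5a2, 1 array per day. Ratios of the probes of a gene have the same sign on each day, the Col1a1 probes lie up to 1.40 apart on day 1, and the sham level of 1 Col1a1 probe and both levels of 1 Col1a2 probe fall over the arrays.

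Type III collagen, built of Col3a1 chains alone, assembles with type I in the sheaths of muscle fibres and in vessel walls. Col3a1 had 11.75, 15.28, 15.59 and 15.60 in injured muscle, against 14.17, 13.67, 12.93 and 13.00 in sham muscle. It was 5.36-fold lower on day 1. On days 3, 7 and 14, when its injured spot was saturated, it was at least 3.06-, 6.31- and 6.08-fold higher than the sham level of the same array. Its sham level spanned 1.24 in log2, and against the mean of all 4 sham levels the ratios were -1.69, 1.84, 2.15 and 2.16.

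Type V chains take part in type I fibrils and limit their diameter. Col5a1 had 8.17, 10.83, 11.41 and 10.92 in injured muscle, against 9.11, 9.35, 9.55 and 9.17 in sham muscle. Col5a2 had 9.97, 12.80, 12.50 and 12.79 in injured muscle, against 10.85, 10.96, 10.496 and 10.71 in sham muscle. Col5a3 had 8.19, 9.88, 10.65 and 10.10 in injured muscle, against 8.85, 8.84, 9.06 and 8.88 in sham muscle. All 3 were below sham on day 1, short of 2-fold, and above sham from day 3. Col5a2 was 3.60-, 4.00- and 4.23-fold higher on days 3, 7 and 14, Col5a1 2.80-, 3.63- and 3.38-fold, and Col5a3 2.06-, 3.02- and 2.32-fold. Col5a3 fell short of 2-fold on day 3 against the mean of all 4 sham levels (0.97 in log2). The Col5a2 probe printed above, which is not its brightest, gave -0.93, 1.74, 1.97 and 1.89, close to the -0.89, 1.85, 2.00 and 2.08 of the brightest.

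The cartilage chain Col2a1 and the minor fibrillar chain Col27a1 stayed within 2-fold. Col2a1, which builds the main cartilage fibril, stayed between -0.15 and 0.28, and Col27a1 between 0.01 and 0.22. Both were dim, with deposited ratios that reached 1.05 for Col2a1 on day 7 and 1.38 for Col27a1 on day 14, and the probe named Col11a1 was not measured. Of the 4 cartilage markers, Acan and Matn3 were not well above background on any day and Sox9 and Comp stayed within 2-fold.

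**Figure D3:**
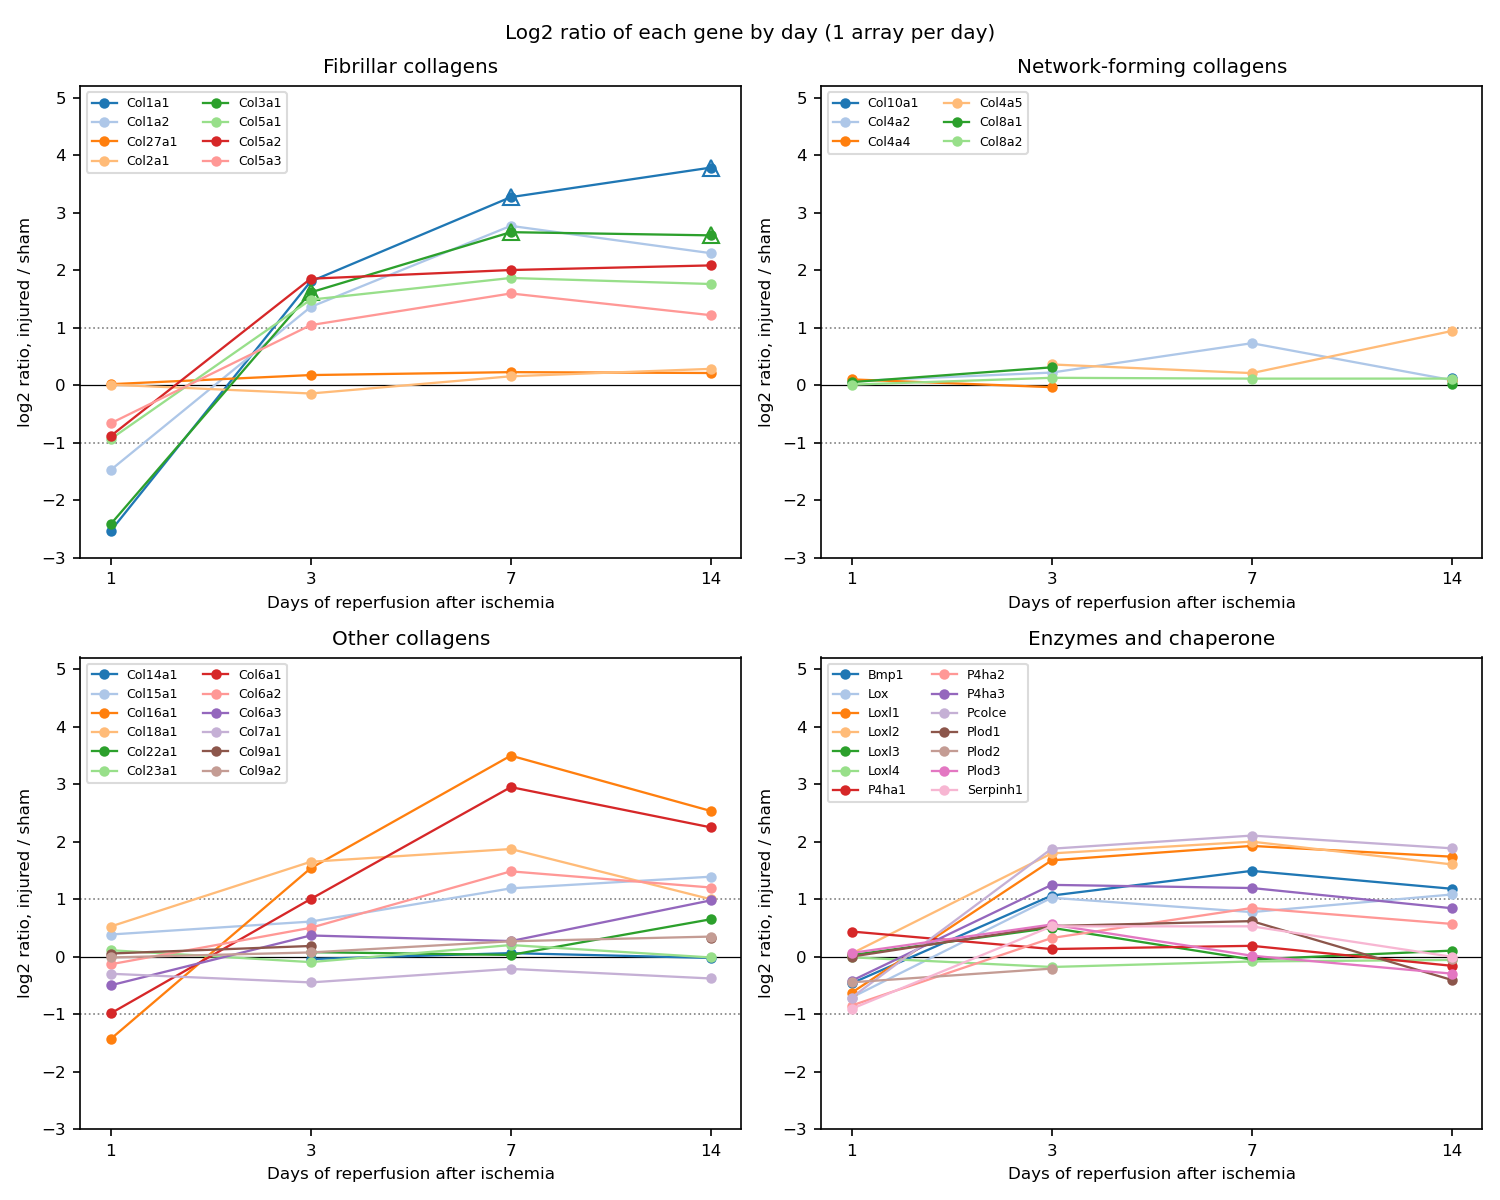
Log2 ratio of injured over sham by day of reperfusion for every measured gene, in 4 panels by class, with dotted lines at 2-fold and open triangles where the injured spot was saturated. Lines join the arrays of a gene, 1 array per day. Chains of types I, III and V lie below 0 on day 1 and above 1 from day 3, Col16a1 reaches 3.49 on day 7, and the network-forming collagens stay between the dotted lines.

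Network-forming collagens stayed within 2-fold of sham on every day, with medians of 0.06, 0.22, 0.21 and 0.10 over the 4, 5, 3 and 6 genes measured on days 1, 3, 7 and 14. Only 2, 2, 1 and 2 of them were well above background in both channels on these days, and Col4a1 was not among the members. Col4a2, a chain of the general type IV network of basement membranes, had 7.40, 7.62, 8.04 and 7.23 in injured muscle, against 7.33, 7.40, 7.31 and 7.14 in sham muscle. Its largest ratio was 0.73, on day 7. Col4a5, a type IV chain of more restricted use, had a ratio of 0.94 on day 14, from 7.65 in injured muscle and 6.71 in sham muscle, where the sham spot was not well above background. Its second probe gave 0.11 on that day, so this value rests on 1 probe. Col4a4 and Col10a1 were measured in the injured channel only, Col8a1 and Col8a2 are chains of the network below endothelial cells, and all of these stayed between -0.04 and 0.31 when measured. The authors' deposited ratios differed for these dim genes, by which 1, 2, 2 and 2 of the class were at least 2-fold higher on days 1, 3, 7 and 14, where 12%, 15.4%, 17.3% and 17.2% of all genes were, with Col4a5 at 2.15 on day 14.

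Among the other collagens 5 of 14, of which 12 were ever measured, passed 2-fold on at least 1 day, where 11.5% of all measured genes did. The class median was -0.08, 0.28, 0.27 and 0.81 on days 1, 3, 7 and 14 (0.13 on day 1 with median centring). Col16a1, a chain that sits on the surface of fibrils and microfibrils, had 8.35, 11.62, 13.58 and 12.17 in injured muscle, against 9.79, 10.09, 10.09 and 9.64 in sham muscle. It was 2.71-fold lower on day 1 and 2.90-, 11.3- and 5.78-fold higher on days 3, 7 and 14. Its dimmer probe gave -0.15, 0.64, 1.81 and 1.25, and the 1.69 between the probes on day 7 was the widest gap of any member on that day. The day 1 call was lost with the median over probes and with median centring (-0.40).

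Type VI collagen forms beaded filaments at the surface of muscle fibres, and in humans changes in its chains cause muscular dystrophies. Col6a1 had 8.80, 11.09, 13.30 and 12.13 in injured muscle, against 9.79, 10.09, 10.36 and 9.89 in sham muscle. Col6a2 had 7.26, 8.09, 9.41 and 8.86 in injured muscle, against 7.39, 7.59, 7.93 and 7.66 in sham muscle. Col6a3 had 7.20, 8.04, 7.23 and 8.90 in injured muscle, against 7.70, 7.68, 6.96 and 7.93 in sham muscle. Col6a1 was 7.71-fold higher on day 7 and 4.74-fold on day 14, and missed 2-fold on day 3 in the fourth decimal of its log2 ratio. Col6a2 was 2.79- and 2.30-fold higher on days 7 and 14, and Col6a3 stayed below 2-fold, at 1.97-fold on day 14. The filament is built of these chains together, and their log2 ratios on day 7 were 2.95, 1.48 and 0.27, a difference between chains that has no test here.

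Col15a1 and Col18a1 encode the multiplexins, proteoglycan collagens of the basement membrane zone, and Col18a1 is the precursor of endostatin. Col18a1 had 9.32, 10.43, 10.43 and 9.47 in injured muscle, against 8.79, 8.78, 8.56 and 8.47 in sham muscle. Col15a1 had 10.05, 10.31, 10.45 and 10.68 in injured muscle, against 9.67, 9.71, 9.27 and 9.29 in sham muscle. For both genes the injured level lay above the sham level of the same array on every day, day 1 included. Col18a1 was 1.44-, 3.13-, 3.65- and 1.99-fold higher on days 1, 3, 7 and 14, and Col15a1 1.30-, 1.52-, 2.27- and 2.62-fold. A probe of Col18a1 that overlaps the brightest one gave 0.53, 1.63, 1.94 and 0.96. Col15a1 dropped below 2-fold on day 7 with the deposited ratios (0.86 in log2) and against the mean of all 4 sham levels.

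Col7a1, the chain of the anchoring fibrils of skin, had 6.34, 6.23, 6.39 and 6.28 in injured muscle, against 6.64, 6.68, 6.61 and 6.66 in sham muscle. Its log2 ratios were -0.30, -0.45, -0.21 and -0.38. Its levels are close to the lowest that stood above background (5.77 to 6.05 in the injured channel and 5.94 to 6.48 in the sham channel over the arrays). The authors' deposited ratios were -1.08, -1.57, -0.17 and -1.46. Among epidermal genes, Krt5, Krt14 and Dsp stayed within 2-fold and Krt10 was not well above background. Col22a1, known from the junction of muscle and tendon, had 7.01 in injured muscle and 6.36 in sham muscle on day 14, a ratio of 0.65, with the sham spot not above background and a deposited ratio of 3.39. Col9a1, Col9a2, Col14a1 and Col23a1 stayed between -0.10 and 0.35 when measured, with deposited ratios of 1.39 for Col9a1 and 1.70 for Col9a2 on day 14 and 1.03 for Col23a1 on day 7. The first pair are chains of a fibril-associated collagen of cartilage, Col14a1 belongs to another such collagen, and Col23a1 spans the membrane.

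**Figure D4:**
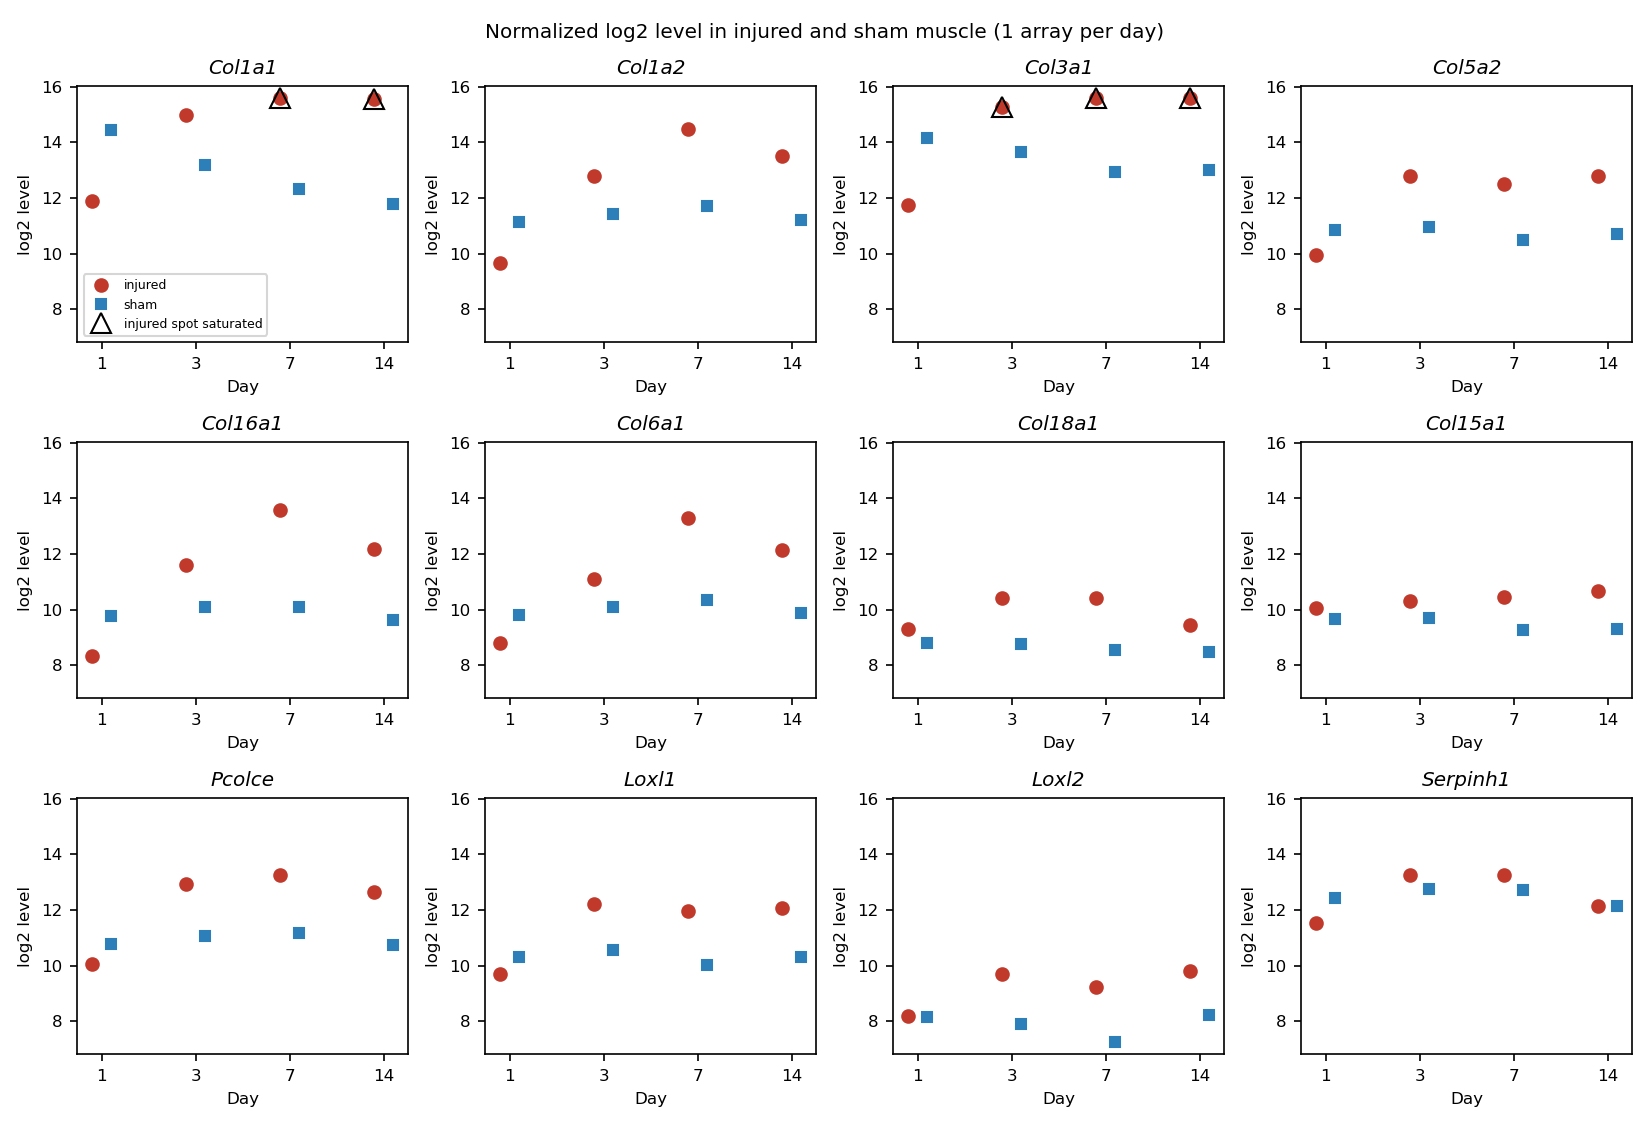
Log2 level in injured muscle (red circles, left of each pair) and sham muscle (blue squares, right) on days 1, 3, 7 and 14 for 12 genes, 1 array per day, with triangles where the injured spot was saturated. Sham levels fall for Col1a1 (range of 2.65) and Col3a1 (1.24) and dip on day 7 for Loxl2 (0.97). For the other genes shown their range is 0.32 to 0.58. Injured levels of Col15a1 and Col18a1 lie above sham on all 4 days.

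Enzymes are given in the order in which they act. The median log2 ratio of the class was -0.44, 0.54, 0.77 and 0.34 on days 1, 3, 7 and 14, with a day 1 value of 0.46 under median centring. Of its 14 genes 0, 6, 5 and 5 were at least 2-fold higher on these days, and 0 were lower. Of all measured genes 1.24%, 2.47%, 3.13% and 3.14% were higher and 4.91%, 3.95%, 1.23% and 1.57% lower.

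P4ha1, P4ha2 and P4ha3 are catalytic subunits of prolyl 4-hydroxylase, which stabilizes the helix. P4ha3 had 7.01, 9.12, 8.19 and 7.76 in injured muscle, against 7.43, 7.87, 7.00 and 6.92 in sham muscle. It was 2.37- and 2.28-fold higher on days 3 and 7, with the sham spot of day 7 not well above background. The second P4ha3 probe gave -0.03, -0.04, -0.08 and -0.35, so the calls rest on 1 probe and were lost with the median over probes (0.60 and 0.56 in log2). P4ha2 had 9.44, 10.42, 10.19 and 9.70 in injured muscle, against 10.29, 10.09, 9.35 and 9.13 in sham muscle, and its sham level spanned 1.16. P4ha1 stayed between -0.16 and 0.44.

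Plod1, Plod2 and Plod3 hydroxylate lysines, where cross-links and sugars are later attached. Plod1 had ratios of 0.00, 0.53, 0.62 and -0.41, Plod3 had 0.06, 0.56, 0.01 and -0.30, and Plod2 stayed between -0.45 and -0.05 when measured. Serpinh1, the collagen-specific chaperone of the endoplasmic reticulum, had 11.52, 13.26, 13.25 and 12.15 in injured muscle, against 12.43, 12.74, 12.73 and 12.16 in sham muscle. It was 1.88-fold lower on day 1, 1.44-fold higher on days 3 and 7, and level with sham on day 14. On day 14 Col1a2 was 4.90-fold higher and Col3a1 at least 6.08-fold, against the sham level of that array.

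Steps outside the cell held most of the enzyme calls. Bmp1, the proteinase that removes the C-terminal propeptide of fibrillar chains, had 9.10, 10.78, 11.28 and 10.76 in injured muscle, against 9.56, 9.72, 9.79 and 9.58 in sham muscle. It was 2.09-, 2.81- and 2.26-fold higher on days 3, 7 and 14. Pcolce, which speeds this cleavage, had 10.07, 12.93, 13.27 and 12.64 in injured muscle, against 10.78, 11.05, 11.17 and 10.76 in sham muscle. It was 3.67-, 4.30- and 3.69-fold higher on these days, and 1.64-fold lower on day 1.

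Lysyl oxidases cross-link collagen and elastin. Loxl1 had 9.70, 12.22, 11.95 and 12.06 in injured muscle, against 10.33, 10.55, 10.02 and 10.32 in sham muscle, and was 3.19-, 3.79- and 3.33-fold higher on days 3, 7 and 14. Loxl2 had 8.20, 9.70, 9.24 and 9.82 in injured muscle, against 8.15, 7.90, 7.25 and 8.22 in sham muscle, and was 3.47-, 3.99- and 3.04-fold higher. Lox had 9.71, 11.36, 10.34 and 10.98 in injured muscle, against 10.42, 10.33, 9.57 and 9.90 in sham muscle. Unlike these relatives, Lox passed 2-fold on days 3 and 14 (2.03- and 2.11-fold) and was at 0.77 in log2 on day 7. Its second probe gave -0.41, 0.98, 0.12 and 0.12, so the day 14 call rests on the brighter probe, and with the median over probes it was 0.60. Loxl3 stayed between -0.05 and 0.50 (1.16 on day 3 by the deposited ratio) and Loxl4 between -0.18 and -0.01.

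Most of the change between arrays fell between day 1 and day 3. The ratio on day 3 was at least 2-fold above that on day 1 in 17 of 37 members (45.9%) and below it in 0, where the background was 3.1% and 1.66% of 22286 genes. The injured level alone was at least 2-fold higher on day 3 in 16 members and lower in 0, where the background was 3.55% and 2.74%. From day 3 to day 7 the ratio was further up by that much in 5 of 36 members (13.9%), Col16a1, Col6a1, Col1a1, Col1a2 and Col3a1, and down in 0, where the background was 4.85% and 2.23% of 22331 genes. For Col16a1, Col6a1 and Col1a2 the injured level was higher by 1.96, 2.21 and 1.69, but for Col1a1 and Col3a1 it was higher by only 0.61 and 0.31, at a saturated spot, while the sham level was lower by 0.85 and 0.74. By injured level 4 members were up and 1 was down over this step, where the background was 5.31% and 5.45%. From day 7 to day 14 it was up in 0 of 36 members and down in 1 (2.78%), Plod1, where the background was 1.82% and 1.24% of 21809 genes, and by injured level 2 were up and 3 down (background of 4.82% and 2.46%). Of the 17 genes past 2-fold on some day, 1 had its highest ratio on day 3, 12 on day 7 and 4 on day 14. For Col1a1 and Col3a1, saturated in injured muscle on days 7 and 14, this order comes from the sham channel. The day 7 peaks of Loxl1 and Loxl2 also rest on a lower sham level that day. Against the mean of all 4 sham levels Loxl1 had 1.92, 1.64 and 1.75 on days 3, 7 and 14. Loxl2 had 1.82, 1.37 and 1.94, and Col18a1 had 1.78 on both day 3 and day 7. No share over all genes stands beside the counts of the day with the highest ratio.

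Some members are neighbours in the genome. In the RefSeq gene order Col3a1 and Col5a2 are adjacent protein-coding genes on chromosome 9, and both were at least 2-fold higher on days 3, 7 and 14. On chromosome 20 Col6a1 and Col6a2 are adjacent, with 2 protein-coding genes between Col6a1 and Col18a1, and all of them were higher on day 7.

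Upstream sequence from RefSeq was at hand for 33 of the 43 members other than Col4a3bp, and for 11 of the 17 that passed 2-fold. Part of the Col1a2 promoter is printed because it holds both a CCAAT box (CCAAT, here on the other strand as ATTGG) and a TATA box (TATAAA), in capitals. It is build GRCr8, chr4:33518307-33518406, plus strand, with the matches starting at -221 and -170 from the annotated start.
Col1a2 upstream: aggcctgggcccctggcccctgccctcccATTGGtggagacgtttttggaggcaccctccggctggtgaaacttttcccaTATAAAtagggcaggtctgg
In 250 bases before the annotated start, on both strands, CCAAT was found in 7 of the 33 genes and 34.0% of 33469 promoters, and TATAAA in 3 genes and 12.9%. The GC box GGGCGG was found in 20 of the 33 and 30.5% of all, the hypoxia element core ACGTG in 3 and 16.6%, and the Smad element core CAGACA in 5 and 17.2%. Among the 11 genes that passed 2-fold, CCAAT was in Col1a2 and Col5a3, TATAAA in Col1a2, CAGACA in Col5a2, Loxl1 and P4ha3, GGGCGG in 6 and ACGTG in 0. A match describes the letters of the window and shows no binding.

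Of 19 further genes of collagen processing 14 had a probe and 12 were measured each day. On days 1, 3, 7 and 14, 0, 2, 0 and 0 were at least 2-fold higher, where 1.24%, 2.47%, 3.13% and 3.14% of all genes were. Their medians were 0.05, 0.23, 0.23 and 0.05. On day 3 the prolyl 3-hydroxylase P3h1 had 12.44 in injured muscle and 10.52 in sham muscle, and its relative P3h3 11.86 and 9.98. Sec23a, a coat protein of the vesicles that carry procollagen out of the endoplasmic reticulum, was lower on day 1, at -1.03. P4hb, the shared subunit of prolyl 4-hydroxylase, stayed between -0.81 and 0.15.

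Of 12 genes of collagen breakdown 11 had a probe, and 0, 2, 3 and 4 were higher and 1, 0, 1 and 1 lower on days 1, 3, 7 and 14. The background was 1.24%, 2.47%, 3.13% and 3.14% higher and 4.91%, 3.95%, 1.23% and 1.57% lower. Medians of the list were -0.16, 0.63, 0.56 and 0.64. Mmp14, a membrane-bound collagenase, had 9.20, 11.96, 13.50 and 12.49 in injured muscle, against levels between 10.43 and 10.93 in sham muscle. It was the gene lower on day 1, and its ratio reached 3.00 on day 7. Mmp2, a gelatinase activated by Mmp14, had ratios of -0.60, 0.77, 2.75 and 2.19, and Ctsk, a lysosomal protease that cuts collagen, -0.60, 1.46, 2.34 and 2.19. Timp1, an inhibitor of metalloproteinases, had 14.39, 14.02, 13.03 and 12.52 in injured muscle, against 14.39, 14.44, 14.31 and 14.42 in sham muscle, and was lower on days 7 and 14. Of 10 collagen receptor genes 6 had a probe, and the integrin chain Itga1 alone passed 2-fold, at 1.26 on day 7 and 1.11 on day 14.

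Markers of cell types moved over the same days, and their part in the ratios was not tested. For their counts the background on days 1, 3, 7 and 14 was 1.24%, 2.47%, 3.13% and 3.14% of all genes higher. It was 4.91%, 3.95%, 1.23% and 1.57% lower. Muscle fibre genes were lower on days 1 and 3 (5 of 5) and 1 and 3 of them higher on days 7 and 14, with a summed level of 14.60, 13.90, 16.70 and 17.27 in injured muscle, against 17.66, 17.74, 16.93 and 16.45 in sham muscle, where Ckm was saturated on days 7 and 14. Of 6 fibroblast genes 0, 3, 2 and 2 were higher and 1 was lower on each day, with a summed level of 13.54, 14.47, 14.64 and 14.76 in injured muscle, against 14.09, 13.79, 13.89 and 13.87 in sham muscle. Lum and Dpt, which bind collagen fibrils, had ratios of -0.69, 1.09, 2.75 and 1.96 and of -1.03, 1.29, 1.84 and 2.37. Pdgfra was higher on day 3 only (1.67), Dcn stayed within 2-fold, and Pdpn was lower on days 3, 7 and 14 (-1.14, -1.99 and -2.21).

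Of 5 tendon genes 3 had a probe, with a summed level of 10.60, 10.28, 12.04 and 13.94 in injured muscle, against 12.03, 11.62, 11.10 and 11.92 in sham muscle. Thbs4 was lower on days 1 and 3 and higher on day 14 (2.03), Fmod was higher on days 7 and 14 (1.60 and 2.17), and the defining marker Tnmd was well above background on day 14 only. Of the 4 smooth muscle and pericyte genes with a probe, Pdgfrb was 2.40-, 3.65- and 2.83-fold higher on days 3, 7 and 14. Rgs5 was lower on day 1 (-1.07) and within 2-fold later, and Tagln stayed within 2-fold. Cnn1 was not well above background on any day. The summed level of the 4 was 9.97, 11.11, 11.36 and 10.99 in injured muscle, against 10.29, 10.42, 10.32 and 10.23 in sham muscle. Of 5 endothelial genes Kdr alone was higher, on days 7 and 14 (1.72 and 1.37). Pecam1, Cdh5, Tek and Vwf stayed within 2-fold, at 0.36, 0.54, 0.05 and 0.25 on day 7. The summed level was 12.50, 12.48, 13.76 and 12.90 in injured muscle, against 11.97, 12.10, 12.15 and 11.68 in sham muscle. Most of it was Kdr, which had 12.34, 12.27, 13.68 and 12.76 in injured muscle. Of 4 macrophage genes Cd163 was lower on days 3, 7 and 14 and Cd68 and Adgre1 were higher on day 7, with a summed level of 13.35, 13.38, 13.30 and 12.41 in injured muscle, against 12.86, 13.01, 12.46 and 12.48 in sham muscle. Of 5 Schwann cell genes 0 passed 2-fold.

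A test was possible only for the mean over the 4 arrays, which treats the days as repeats and asks for a shift common to them. By limma with Benjamini-Hochberg adjustment, 5 of 20529 genes measured on every array (0.0244%) were called higher and 32 (0.156%) lower, and of the 33 members tested 0 were called. At an unadjusted p under 0.05 there were 4 members (12.1%), 3 of them higher, where 21.8% of all genes tested were, so the members' share is below the background. Col18a1 had a mean log2 ratio of 1.26 ± 0.25 (SE, n = 4 arrays, higher on 4 of 4; limma adjusted p = 0.121). Col15a1 had 0.89 ± 0.20 (limma adjusted p = 0.137) and Loxl2 1.36 ± 0.36 (limma adjusted p = 0.157), each also higher on 4 of 4 arrays. Col7a1 had -0.34 ± 0.07 and was lower on 4 of 4 (limma adjusted p = 0.128). Fibrillar chains, with opposite signs on day 1 and later days, had wide errors, as Col1a1 with 1.58 ± 1.14 (limma adjusted p = 0.45). Without day 1, 22 of 36 members (61.1%) had an unadjusted p under 0.05, where 21% of 21304 genes did, and 0 were called (smallest limma adjusted p = 0.0892). Without day 3, 7 or 14 the members were 3 of 33, 3 of 37 and 4 of 33. All genes were then 2550 of 20681, 2840 of 21458 and 3758 of 20981. Day 1 held the opposite sign for the fibrillar chains, so leaving it out narrows their spread by construction. The days are not replicates, and no conclusion is drawn from the count without day 1.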

How the data were processed

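Total RNA of gracilis was labelled during in vitro transcription and hybridized to Agilent rat arrays, per the labels' protocols. The deposited scanner files hold mean spot and median local background intensity in both channels and a log10 ratio of red over green, which Feature Extraction 10.5.1.1 made after background subtraction and dye normalization, per the file headers. Version 9.5.3 is given instead in the submitters' processing notes. The authors' deposited value table holds log2 ratios that equalled that log10 ratio on the log2 scale within 0.005 in all 4 columns, whose medians are 0.

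From the intensities, log2 ratios were computed with limma 3.58.1 in R 4.3.3 by normexp background correction (offset 50) and loess within each array, with control spots and outlier spots left out of the curve. Spots of a probe were averaged, and the probe brightest over the arrays stood for a gene. Levels come from Aquantile normalization, which evens the mean brightness of both channels between arrays and leaves the ratios as they are. A saturated injured spot gives a lower bound, the injured level against the sham level of that array. Ratios past 2-fold are counted by size, with no test. The mean over the 4 arrays was tested with limma's moderated test across all genes, and the script was tested on simulated data. The members and all gene lists were chosen with earlier results of these data known. Any member could be named, with values per day for those past 2-fold on some day, and of each list up to 4 genes farthest from sham, plus cell type markers. Alternatives were the deposited ratios, median centring, no background correction, the mean of the 4 sham levels as denominator, other rules for dim, multiple and saturated probes, and leaving out each day. Probe positions are those of the files, in build rn4; promoter letters come from RefSeq, build GRCr8.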

Additional observations from a re-analysis of the deposited data

Results flagged for a closer look

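The ratio of injured over sham was of opposite sign and past 2-fold on day 1 and day 7 in 4 genes, which were lower on day 1 and higher on day 7. The log2 ratio on day 7 minus that on day 1 was 5.808 for Col1a1, 5.081 for Col3a1, 4.93 for Col16a1 and 4.248 for Col1a2. The day 7 spots of Col1a1 and Col3a1 were saturated in injured muscle, so their values are lower bounds for these arrays, and both genes had a sham level that moved between arrays. Against the mean of all 4 sham levels the differences were 3.69 for Col1a1, 3.84 for Col3a1, 5.23 for Col16a1 and 4.82 for Col1a2. With 1 array a day this difference between days was not tested. Under median centring only Col1a1 kept its day 1 call. No sham channel of the 33 genes measured on every array stood apart from the other 3 by the criterion for a single outlying sample. Applied gene by gene to 4 values, this criterion finds only extreme cases and cannot see a shift of a whole array. The sham level was at least 2-fold lower on day 7 than on day 3 in 648 of 22331 genes and higher in 17. From day 7 to day 14 it was at least 2-fold higher in 644 of 21809 genes and lower in 23. Of the members, 0 moved that far in sham at either step.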

How the results depend on the processing

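Log2 values of members here stand beside a shift of all genes: the deposited ratios put the median of all measured genes at 0.14, 0.18, 0.23 and 0.12 on days 1, 3, 7 and 14, and median centring at 0.37, 0.29, 0.27 and 0.27. With the deposited ratios 1, 18, 19 and 24 members were at least 2-fold higher and 6, 1, 0 and 1 lower, with medians of -0.24, 0.84, 1.04 and 1.21, where 12%, 15.4%, 17.3% and 17.2% of all genes were higher and 8.53%, 7.42%, 8.05% and 6.42% lower. With median centring 5, 22, 21 and 20 were higher and 1, 0, 0 and 0 lower, with medians of 0.23, 1.202, 1.44 and 0.80, where 21.8%, 17.2%, 11.6% and 12.2% of all genes were higher. The day 1 median thus reversed. Against the mean of the 4 sham levels the medians of days 3 and 7 were 0.63 and 0.61. Restricted to genes above background in both channels they were -0.45, 0.80, 1.59 and 1.08. With the median over the probes of a gene the medians of days 3, 7 and 14 were 0.36, 0.53 and 0.35, and with saturated spots left out that of day 14 was 0.35. The mean over the arrays gave by limma 1 of 33 members called higher with the deposited ratios, where 2.93% of all genes were, and with median centring 20 higher and 1 lower, where 40.9% of all genes were called higher. Leaving out each day in turn gave 0 to 0 members called, and leaving out day 14 keeps a single scan session. The causes of these shifts were not tested. Of 49 gene and day pairs past 2-fold, 41 were past it under every alternative that gave a value, 1 of 4 on day 1 (Col1a1) and 40 of 45 later. With saturated spots left out, Col1a1 on days 7 and 14 and Col3a1 on days 3, 7 and 14 gave no value. The pairs lost later were Col5a3 and P4ha3 on day 3, P4ha3 and Col15a1 on day 7, and Lox on day 14. No paired analysis was possible because each group is 1 array and all carry the same replicate number. Signal over background limits genes measured in 1 channel only, such as Col4a4 and Col4a5.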

Other observations

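Some probes are described on the array as collagen chains or collagen-like proteins but carry names outside the pattern used here, and were looked up after the results were seen. Cthrc1, a secreted protein with a short collagen repeat, had log2 ratios of -1.17, 1.70, 3.06 and 2.86 on days 1, 3, 7 and 14. A fragment described as the type V alpha 2 chain had -0.96, 1.83, 1.98 and 1.97, close to the values of Col5a2. A fragment described as the type XI alpha 1 chain reached 1.00 on day 7 and 1.31 on day 14, another was at 0.57 and 0.92, and the remaining one, measured on day 7 only, was at 0.00, whereas the probe named Col11a1 was not well above background on any day. The sham spots of the type XI fragments were not well above background on any day. All other such probes stayed within 2-fold of sham or were not well above background. Among them, a type XXIV alpha 1 probe was at -0.91 on days 1 and 3, with the injured spot not well above background. A type VIII alpha 1 probe was at -0.50 on day 7 and a type IX alpha 1 fragment at 0.52 on day 14. These values have no test.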
